A study of Homo sapiens with 3 samples.

Results

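The sites described here were places in the genome of H2087 cells that carried both H3K27ac and H3K4me3 away from any annotated transcript start. They were 836 of the 18585 H3K4me3 peaks (4.50%). A site was a distinct H3K4me3 peak that shared at least 1 bp with an H3K27ac peak and lay more than 3 kb from every transcript start of any gene type in GENCODE 44, on the human genome hg19. Overlap of the marks and distance from starts therefore chose the sites, that is, the sites were chosen by the measured peaks of both lists, and values tied to them are given as description. H2087 is an established human lung adenocarcinoma cell line. Its chromatin was examined by ChIP-seq, in which antibodies pull down DNA wrapped on histones with a given modification and the DNA is sequenced. The marks were H3K27ac, an acetyl group on lysine 27 of histone H3, and H3K4me3, 3 methyl groups on its lysine 4. No treatment of the cells was named. There was 1 library per mark (n = 1) and an input library that was not analysed here, so no value has a replicate and no test between the marks could be made.

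H3K4me3 is a mark of active promoters, where it is often found over stretches rich in CG dinucleotides (CpG islands). H3K27ac marks active promoters and active enhancers, the regulatory DNA that acts on genes from a distance. Enhancers are usually recognised by H3K4me1 with little H3K4me3, so a distal peak of both H3K4me3 and H3K27ac can be an enhancer that also carries the promoter mark or a promoter that the annotation lacks. H3K4me1 and RNA were not analysed here, and these cannot be told apart.

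The bases under several sites are shown to make their range of base composition visible, which was not itself a criterion in the choice of the sites. Each line gives up to 200 bases from the middle of the stretch under both marks, on the plus strand of the GRCh37 assembly (hg19). Capitals mark CG dinucleotides. The first comes from a site with a high H3K4me3 value whose sequence was mostly unique in the genome.
chr7:5436566-5436765: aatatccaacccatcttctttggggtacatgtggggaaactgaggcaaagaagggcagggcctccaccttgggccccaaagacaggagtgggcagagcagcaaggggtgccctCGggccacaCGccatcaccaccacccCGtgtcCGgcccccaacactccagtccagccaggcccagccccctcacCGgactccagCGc
This stretch lay in an intron of TNRC18, held 6 CG among 200 bases and had a GC content of 64.5%.

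A pair came from the sites whose 300-base windows held the most CG, 41 and 38.
chr2:225306940-225307139: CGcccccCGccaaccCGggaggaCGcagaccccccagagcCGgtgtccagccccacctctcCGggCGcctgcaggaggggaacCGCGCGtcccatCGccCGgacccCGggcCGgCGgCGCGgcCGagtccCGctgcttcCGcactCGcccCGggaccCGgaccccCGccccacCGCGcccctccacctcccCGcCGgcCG
chr10:130008780-130008979: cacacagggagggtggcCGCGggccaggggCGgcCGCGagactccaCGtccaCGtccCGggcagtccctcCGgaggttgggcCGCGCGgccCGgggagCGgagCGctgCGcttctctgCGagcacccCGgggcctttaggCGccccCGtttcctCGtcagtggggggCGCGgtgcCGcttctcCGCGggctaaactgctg
The stretches held 29 and 26 CG, with a GC content of 82.0% and 75.5%. The former lay between genes, 37.7 kb from the start of the protein-coding gene CUL3 and 22.3 kb from the nearest start of any gene. The latter lay in an intron of the noncoding gene LINC01163, 29.2 kb from its start. Their peak values were low, with a −log10 q of 2.29 for H3K4me3 and 1.37 for H3K27ac at the former, and 3.11 and 2.32 at the latter. The −log10 q is the significance that the authors' peak caller gave to a peak within its own library, and a q of 0.05 is 1.30 on this scale.

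A further pair is shown for genes of the lung lineage described later, and was chosen after the values were seen. The first lay 15.1 kb downstream of the start of NKX2-1 and the second 12 kb downstream of the start of FOXA1.
chr14:36974726-36974925: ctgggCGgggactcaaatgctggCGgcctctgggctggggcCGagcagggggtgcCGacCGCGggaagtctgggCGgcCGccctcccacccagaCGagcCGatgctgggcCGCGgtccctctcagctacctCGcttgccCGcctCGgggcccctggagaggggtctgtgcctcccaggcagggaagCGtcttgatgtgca
chr14:38052816-38053015: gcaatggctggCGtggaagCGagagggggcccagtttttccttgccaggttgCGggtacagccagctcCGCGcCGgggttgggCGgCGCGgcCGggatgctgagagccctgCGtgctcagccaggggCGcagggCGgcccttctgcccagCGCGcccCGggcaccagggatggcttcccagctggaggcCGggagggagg
They held 16 and 17 CG, and their GC content was 72.5% and 73.5%. In both, none of the 32-base words taken from the peak recurred in the assembly.

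The last pair came from the sites with the most matches to TGANTCA, where N is any base. This is a loose form of the letters bound by FOS and JUN dimers (AP-1), which have C or G at N. Capitals here mark the matches.
chr1:162056296-162056495: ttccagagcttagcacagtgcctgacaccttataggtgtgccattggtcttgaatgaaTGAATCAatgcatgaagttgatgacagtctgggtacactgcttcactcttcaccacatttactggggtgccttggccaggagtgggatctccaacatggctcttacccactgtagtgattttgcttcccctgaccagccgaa
chr7:39782118-39782317: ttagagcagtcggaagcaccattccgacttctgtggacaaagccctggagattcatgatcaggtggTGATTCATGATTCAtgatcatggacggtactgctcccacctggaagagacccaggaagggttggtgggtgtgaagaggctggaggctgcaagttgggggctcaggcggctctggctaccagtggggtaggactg
The former lay in an intron of NOS1AP. It held 1 match in the printed stretch and 2 in its 300-base window. The latter lay in an intron of the noncoding gene LINC00265 and held 2 adjoining matches. All printed matches have A or T at N, so none is the usual AP-1 form.

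Overlap of the marks was less frequent away from starts than near them. Of the 3761 distal H3K4me3 peaks, 22.2% (95% interval 20.9 to 23.6) met an H3K27ac peak, against 33.3% (32.5 to 34.1) of the 14824 peaks within 3 kb of a start. The difference was −11.1 percentage points (−12.6 to −9.52). Seen from the other list, 7.60% (7.11 to 8.12) of the 10706 distal H3K27ac peaks met an H3K4me3 peak, against 37.1% (36.3 to 38.0) of the 13390 near a start. These and later intervals hold counting error alone, as if neighbouring peaks were independent. The sites were compared with the 2925 distal H3K4me3 peaks without H3K27ac, the 9892 distal H3K27ac peaks without H3K4me3, and the 4937 start-near H3K4me3 peaks with H3K27ac.

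Within the distal H3K4me3 peaks, overlap became rarer with distance from a transcript start. It was 28.4% (25 to 32) at 3 to 5 kb, 25.1% at 5 to 10 kb, 23.3% at 10 to 20 kb and 20.9% (18.1 to 24) at 20 to 50 kb. Beyond that it fell to 11.1% (7.82 to 15.2) at 50 to 100 kb and 3.31% (1.23 to 7.08) past 100 kb, where 6 sites remained. Without peaks of which over 50% of the 32-base words recur in the assembly, called multi-copy below, the values were 29.0%, 25.9%, 23.1%, 23%, 10.5% and 4.59%. Multi-copy sequence made up 22.5% of the nearest and 40.6% of the farthest H3K4me3 peaks without H3K27ac. For distal H3K27ac peaks, the share that met H3K4me3 lay between 6.39% and 8.45% in all 6 distance classes, and their intervals overlapped.

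**Figure D1:**
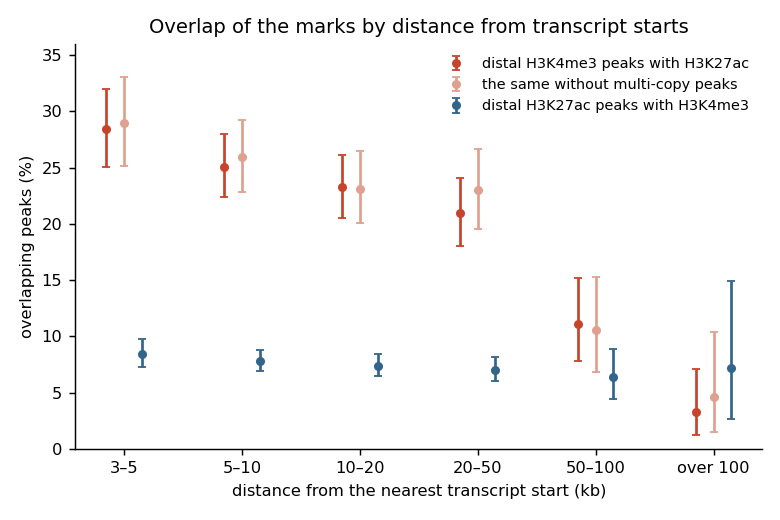
Share of distal peaks that overlapped the other mark (y axis, %) by distance from the nearest transcript start (x axis, kb); points are shares and bars are exact 95% intervals. The share of H3K4me3 peaks with H3K27ac fell from 28.4% to 3.31%, while that of H3K27ac peaks with H3K4me3 stayed between 6.39% and 8.45%.

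The median distance of a site from the nearest start was 9.73 kb (interquartile range 5.30 to 18.8), and 51.2% lay within 10 kb. Sites more than 50 kb from a start made up 4.78%, against 15.3% of the H3K4me3 peaks without H3K27ac, a difference of −10.5 points (−12.3 to −8.41). The distal H3K27ac peaks without H3K4me3 had 5.53% there, and the interval of that difference, −2.08 to 0.976 points, included 0. The nearest start belonged to a protein-coding gene for 455 sites (54.4%), to a long noncoding RNA (lncRNA) gene for 211 (25.2%) and to another type, such as a pseudogene or a small RNA, for 170 (20.3%). Measured to starts of protein-coding genes alone, the median distance was 15.5 kb.

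The 5 sites farthest from any start lay 139 to 149 kb away. The farthest, chr9:118354501-118354694, was in an intron of an unnamed lncRNA gene and had a −log10 q of 4.54 for H3K4me3 and 2.82 for H3K27ac. The next were chr4:72473381-72473575, 147 kb from GC, which encodes the vitamin D binding protein, and chr7:12106827-12107068, 144 kb from TMEM106B. They were followed by chr5:171023225-171023507 and chr12:33375982-33376185, with FGF18 and SYT10 as the nearest protein-coding genes at 177 and 203 kb. All 5 were between 194 and 283 bp wide and held none of the recurring words. At the other end, the sites closest to the 3 kb limit lay 3003, 3007 and 3020 bp from starts of TPCN1, LINC02947 and PVT1, with an H3K4me3 −log10 q of 2.23, 5.73 and 5.64. The peaks with both marks that just missed it lay 2999, 2981 and 2969 bp from starts of CERK, PPCDC and FOXA1, with values of 1.31, 2.63 and 7.92.

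The sites lay mostly in introns. Of the 836, 574 (68.7%) were in a gene, 468 of them in a protein-coding gene. Introns alone held 526 (62.9%), exons were touched by 48 (5.74%), and 262 (31.3%) were outside genes. The share in genes was 8.28 points (4.61 to 11.8) higher than for H3K4me3 peaks without H3K27ac, and differed by 1.61 points (−1.75 to 4.80) from that of H3K27ac peaks without H3K4me3. Start-near peaks with both marks touched exons in 67.2% of cases.

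At the sites themselves the marks sat close together. All but 3 met a single H3K27ac peak, and the centres of the peaks were a median of 83.5 bp apart (interquartile range 33.5 to 179), with 465 sites within 100 bp. The shared stretch had a median of 216 bp and covered a median of 88.9% of the H3K4me3 peak. For 291 sites the H3K4me3 peak lay wholly inside the H3K27ac peak, and for 85 the reverse held. The H3K27ac peaks were wider, with a median of 366 bp against 271 bp for H3K4me3. Of the 823 H3K27ac peaks involved, 805 also lay more than 3 kb from every start. At the lower limit of the rule, 26 sites shared under 50 bp. The smallest overlaps, 1, 3 and 4 bp, were in FAAP20, C1orf232 and PITPNM2, and the H3K4me3 peaks that came nearest without touching, in or near TBC1D2B, TNS3 and AQP3, missed by 9, 10 and 10 bp.

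The sites were modest peaks. Their H3K4me3 width had a median of 271 bp (interquartile range 216 to 359), between the 239 bp of distal H3K4me3 peaks without H3K27ac and the 423 bp of start-near peaks with both marks. The median H3K4me3 −log10 q was 2.77 (1.95 to 3.76), against 2.23 and 3.76 in those classes, and 86 sites (10.3%) reached 5. The median H3K27ac value was 3.36, against 2.45 for distal H3K27ac peaks without H3K4me3 and 3.17 for start-near peaks with both marks. The H3K27ac peaks at the sites had a median width of 366 bp, against 268 bp for distal H3K27ac peaks without H3K4me3. Among distal H3K4me3 peaks ranked by −log10 q, overlap with H3K27ac rose from 15.7% (13.1 to 18.5) in the 753 peaks with the lowest values to 31.0% (27.7 to 34.4) in the 752 with the highest. Ranked by width it rose from 15.1% to 34.4%, and a wide peak has more bases with which to overlap. Across the 836 sites the values of the marks went together weakly (Spearman rho = 0.11, a description over peaks from the same libraries). A value of at least 5 in both lists was reached by 36 sites, and 42 stayed under 2 in both.

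**Figure D2:**
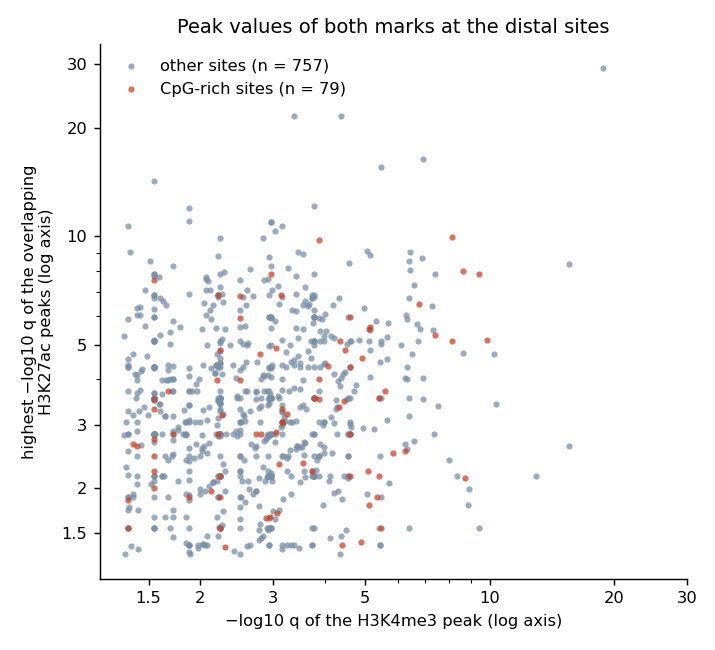
The 836 sites by the −log10 q of the H3K4me3 peak (x axis, log scale) and the highest −log10 q of the overlapping H3K27ac peaks (y axis, log scale); each point is a site, and red points are the 79 sites with a CpG-rich window. Most values were low, with medians of 2.77 and 3.36, and the red points were spread among the others.

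Of the sites described here, those with the highest H3K4me3 values were a 271 bp peak in an intron of PVT1 (15.6 for H3K4me3 and 8.39 for H3K27ac), chr12:33673739-33674659 (15.5 and 2.61), chr2:87655236-87656549 (13.0 and 2.16) and chr7:5436532-5436862 in an intron of TNRC18 (10.4 and 3.42). The sites on chromosomes 12 and 2 were 51.1% and 78.5% multi-copy, and the H3K27ac peak covered 23.2% and 22.4% of them. Of the sites described here, the highest H3K27ac values were found at chr10:35046248-35046790 in an intron of PARD3 (16.4) and chr17:41400587-41401054, 35.5 kb from TMEM106A (15.6). The site on chromosome 2 was also the widest, at 1314 bp. Other wide sites measured 1083, 1040 and 1032 bp and lay in an intron of RICTOR, 17.4 kb from TUBB8 and 38.8 kb from LPCAT1. The RICTOR site met its H3K27ac peak by only 6 bp and was 83.0% multi-copy.

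The base composition of the sites was measured in 300-base windows on their centres. The rule did not use it, but it left out peaks near starts, where CpG-rich sequence was frequent, and the other distal classes had the same limit. The median GC content was 55.0% (95% interval 54.3 to 55.7), close to the 54.0% of distal H3K4me3 peaks without H3K27ac and the 53.0% of distal H3K27ac peaks without H3K4me3. It was 63.3% at start-near peaks with both marks and 40.0% in 28580 windows placed every 100 kb along the genome. The ratio of observed to expected CG had medians of 0.251, 0.263, 0.233, 0.629 and 0.173 in the same order. A window was called CpG-rich when its GC content reached 50% and this ratio reached 0.6. Of the sites, 79 (9.45%, 7.55 to 11.6) were CpG-rich, against 51.9% (50.5 to 53.3) of the start-near peaks. The share was 6.09 points (4.25 to 8.29) above that of H3K27ac peaks without H3K4me3, where it was 3.36%. It differed by −1.11 points (−3.26 to 1.30) from the 10.6% of H3K4me3 peaks without H3K27ac. In the genome windows it was 1.58%.

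**Figure D3:**
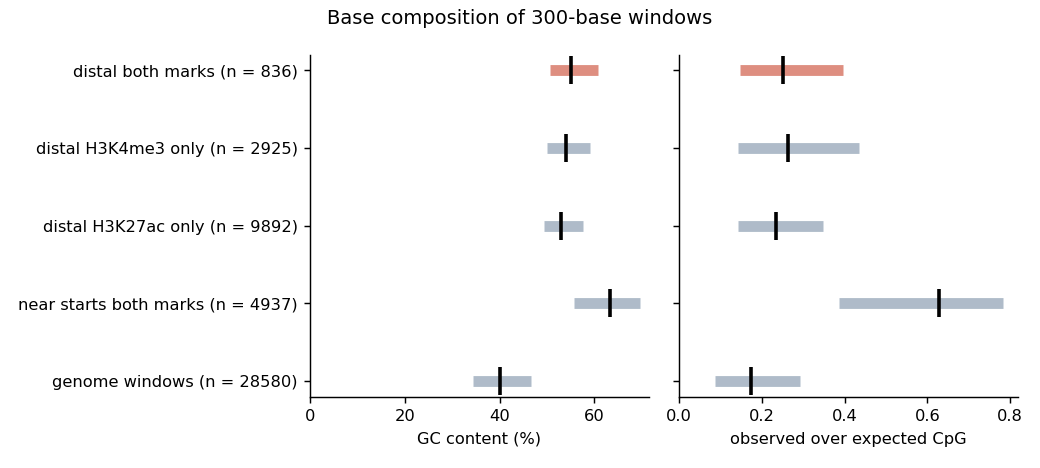
GC content (left, %) and observed over expected CG (right, ratio) of 300-base windows in the sites, 3 comparison classes of peaks and windows spread over the genome; black ticks are medians and bars span the interquartile range. The sites, at 55.0% and 0.251, sat with the other distal peaks and below the start-near peaks, at 63.3% and 0.629.

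The 79 CpG-rich sites differed from the other 757 in where they lay. They were in a gene in 49.4% (37.9 to 60.9) of cases, against 70.7% (67.3 to 73.9). H3K27ac peaks were joined into stitched regions where they lay within 10 kb of each other, and 26.6% (17.3 to 37.7) of the CpG-rich sites were in a stitched region of at least 5 peaks, against 49.4% (45.8 to 53.0) of the others. The median H3K4me3 −log10 q was 3.16 (2.88 to 4.08) and 2.68 (2.49 to 2.86), and the median H3K27ac value was 3.19 and 3.38. Of the 86 sites with an H3K4me3 value of at least 5, 19 (22.1%, 13.9 to 32.3) were CpG-rich. This division and its examples were made after the data were seen. The highest H3K4me3 values among them were 9.86 at a site in the lncRNA gene CASC8, which was 76.5% multi-copy, 9.41 at chr3:182400424-182400879, 110 kb from ATP11B, and 8.73 at chr1:181073899-181074308, 16.1 kb from IER5, an immediate early response gene. A site at chr12:58258983-58259488, 18.5 kb from CTDSP2, had 8.10 for H3K4me3 and 9.96 for H3K27ac. The annotation set used also mattered for this group. Another 327 peaks with both marks were near a start of a noncoding gene or pseudogene only, and 32.7% (27.7 to 38.1) of them were CpG-rich.

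Multi-copy sequence, in which short reads are hard to place, was less frequent at the sites than at H3K4me3 peaks without H3K27ac. It was found in 138 sites (16.5%) against 25%, a difference of −8.52 points (−11.4 to −5.44). H3K27ac peaks without H3K4me3 had 17.2% and start-near peaks 3.99%. Sites within 1 Mb of an assembly gap of at least 1 Mb made up 0.718%, against 4.82% of the H3K4me3 peaks without H3K27ac. Repeats and gaps thus moved with the absence of H3K27ac, and their part in it was not tested.

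Letters bound by 11 families of transcription factors were searched on both strands of the 300-base windows. A match is a description of letters and does not show that a factor was bound. GGGCGG, bound by SP and KLF factors, was in 18.1% (15.5 to 20.8) of the sites, 5.54 points (2.99 to 8.36) above H3K27ac peaks without H3K4me3. H3K4me3 peaks without H3K27ac held it in 16.9%, and the interval of that difference, −1.62 to 4.26 points, included 0. Start-near peaks held it in 45.1%, genome windows in 4.22% and RefSeq promoters, taken from 250 bases before to 50 after the start on GRCh38.p14, in 45.0%. The loose AP-1 letters TGANTCA, with any base at N, were in 38 sites (4.55%, 3.24 to 6.19). They were in 5.88% of H3K4me3 peaks without H3K27ac, 5.85% of H3K27ac peaks without H3K4me3, 9.01% of genome windows and 7.71% of promoters. The intervals of the first 2 differences, −2.85 to 0.481 and −2.62 to 0.384 points, included 0. The median GC content was 40.0% in the genome windows and 55.0% at the sites, and its part in these shares was not tested.

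The letters of lung lineage factors were about as frequent as at other distal peaks. CAAGTG, bound by NKX2 factors such as NKX2-1, was in 21.7% of the sites and in 21.7% of each of the other distal classes, against 12% of start-near peaks, 16.7% of genome windows and 11.5% of promoters. TGTTTAC, bound by forkhead factors such as FOXA1, was in 2.39% of the sites, 3.49% and 2.05% of the other distal classes, 4.65% of genome windows and 3.42% of promoters. GGAATG, bound by TEAD factors, was in 17.1%, 3.10 points (0.604 to 5.89) above H3K27ac peaks without H3K4me3, with 15.3% in genome windows and 14% in promoters. TGTGGT, bound by RUNX factors, was in 19.1%, which was 3.28 points lower than in that class (−5.94 to −0.363), with 19.96% in genome windows and 13.1% in promoters. CACGTG, the E-box bound by MYC, MAX and USF, was in 6.10%, 1.83 points (0.191 to 3.78) above H3K4me3 peaks without H3K27ac, with 2.60% and 7.26% in genome windows and promoters. The core of the CTCF motif was in 2.27%, 0.974 points (0.0300 to 2.27) above the same class, with 0.742% and 2.41%. For the TEAD, RUNX, E-box and CTCF letters, the difference from the other distal class, not printed above, had an interval that included 0. In that order the intervals were −0.792 to 4.94, −5.21 to 0.894, −0.423 to 2.95 and −0.418 to 1.72 points. With 11 families and 3 classes compared, and intervals not widened for their number, differences of this size carry little weight. For ETS (CCGGAAG), C/EBP (TTGCNNAA) and GATA factors (AGATAA), the shares in the sites were 2.51%, 8.85% and 6.34%. Both differences from the other distal classes had intervals that included 0. In genome windows they were 0.728%, 15.8% and 21.1%, and in promoters 10.3%, 10.5% and 10.3%. Matches of different motifs can overlap, and a window can count for more than a single family.

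H3K27ac peaks were frequent around the sites. The rule asked for an H3K27ac peak at each site, and the H3K4me3 peaks without H3K27ac were defined by lacking it. The values around them are therefore a description tied to that choice. At 2 kb to the left and right of their centres, by chromosome position, 13.2% and 12.3% had an H3K27ac peak, against 1.85% and 2.50% for H3K4me3 peaks without H3K27ac and 6.70% and 6.66% for start-near peaks with both marks. At 5 kb the values were 6.46% and 8.01% for the sites, 1.68% and 1.88%, and 3.24% and 3.06%. Stitched H3K27ac regions of at least 5 peaks held 395 sites (47.2%, 43.8 to 50.7), against 29.6% of H3K27ac peaks without H3K4me3, a difference of 17.6 points (14.2 to 21.1). Leaving out chromosomes 8 and 12 gave 42.7% and 28.2%, a difference of 14.5 points (10.8 to 18.4). Start-near peaks with both marks were in such regions in 25.3% of cases. Another H3K4me3 peak lay within 10 kb of 477 sites (57.1%), against 29.3% of H3K4me3 peaks without H3K27ac and 34.3% of H3K27ac peaks without H3K4me3. At start-near peaks with both marks this share was higher, at 70.8%. Peaks of the same region are not independent, so these intervals are too narrow.

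**Figure D4:**
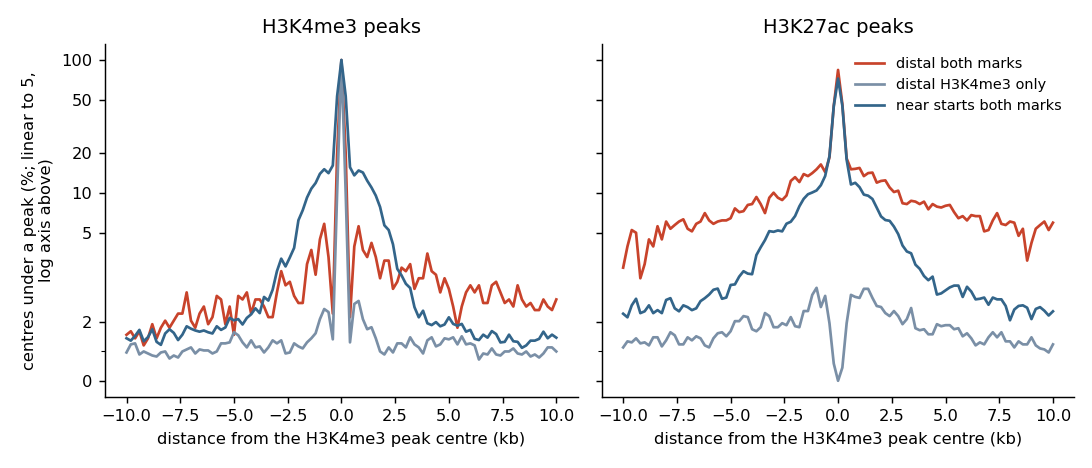
Share of peak centres lying under an H3K4me3 peak (left) or an H3K27ac peak (right) by distance from the centre of the H3K4me3 peak (x axis, kb, in steps of 200 bp; y axis, %, linear to 5 and logarithmic above), for the sites and 2 classes of H3K4me3 peaks. Around the sites H3K27ac was at 13.2% and 12.3% at 2 kb to the left and right and at 6.46% and 8.01% at 5 kb. H3K4me3 was at 2.63% and 4.07%, and at 1.56% and 3.11%, against 1.64% and 1.40% at 5 kb for the H3K4me3 peaks without H3K27ac.

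Of the sites, 232 (27.8%, 24.7 to 30.9) lay within 10 kb of another site and formed 87 clusters, of which 58 were pairs, 15 held 3 sites and 14 held 4 or more. The remaining 604 stood alone. Joined in the same way within their own class, 474 of 2925 H3K4me3 peaks without H3K27ac were in clusters. So were 2019 of 4937 start-near peaks with both marks and 5592 of 9892 H3K27ac peaks without H3K4me3. These classes were larger than the set of sites, and the effect of class size was not tested. The largest clusters of sites were chr8:129178812-129195290 with 11 sites and chr8:128883446-128895137 with 8. Both lay in introns of PVT1, the lncRNA gene next to MYC. Clusters of 5 sites followed, among them chr8:128911309-128920889 in PVT1 and chr8:124681511-124696165, near KLHL38 and partly in ANXA13. All 34 sites in PVT1 missed its exons. Their H3K4me3 −log10 q had a median of 2.77, the same as that of all sites, and a range of 1.35 to 15.6, whereas their H3K27ac values had a median of 6.35 against 3.36. The share of sites in clusters was 23% without chromosomes 8 and 12, and 17.0% among the 471 sites where the shared stretch reached 50% of each peak.

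Outside chromosome 8, PARD3 held the most sites. This gene encodes a scaffold of epithelial cell polarity, and its 15 sites, none of which touched an exon or was CpG-rich, spread from chr10:34414053 to chr10:35050343. Their H3K4me3 values ran from 1.41 to 7.31 with a median of 3.44, and their H3K27ac values from 2.82 to 16.4 with a median of 6.06. A cluster of 4, chr10:35046248-35050343, had an H3K4me3 value of at least 6.25 at every site. The other clusters of 5 lay at chr5:1543918-1565444 near LPCAT1, an enzyme of lung surfactant lipid synthesis, and at chr11:118786185-118792755 in BCL9L, a co-activator of Wnt signalling. The sites of the former lay 19841 to 40992 bp from a start of LPCAT1. They were closer, at 4487 to 13244 bp, to starts of an unnamed lncRNA gene, and some touched its exons. In all, 465 genes hosted a site, 377 of them protein-coding, and 27 hosted 3 or more.

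The sites were unevenly spread over the chromosomes. Chromosome 8 held 89 (10.6%), chromosome 11 held 83 and chromosome 5 held 76. Of the other classes, chromosome 8 held 6.29% of H3K4me3 peaks without H3K27ac and 5.88% of H3K27ac peaks without H3K4me3. It held 4.72% of start-near peaks with both marks. The share of distal H3K4me3 peaks that met H3K27ac was 37.0% (26.0 to 49.1) on chromosome 20, 33.2% (27.4 to 39.4) on chromosome 11 and 32.6% (27.1 to 38.5) on chromosome 8, and 11.6% (5.92 to 19.8) on each of chromosomes 4 and 6. On chromosome 5 it was 21.3% (17.2 to 25.9), close to the 22.2% over all chromosomes. Without chromosome 8 it was 21.4% over the rest of the genome. The sites fell into 471 megabases, 304 of which held a single site, and the 2 fullest, next to each other on chromosome 8 and containing PVT1, held 36.

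To relate the sites to gene programmes of lung adenocarcinoma, genes of 10 lists were searched for a site within 50 kb of the gene start. Of 20163 protein-coding genes, 799 (3.96%) had a site there, which is the background for these lists. Of the 148 listed genes, 12 had one (8.11%, 4.26 to 13.7). They were 2 of 16 genes of the lung lineage and surfactant, 4 of 20 of epithelial identity, 1 of 10 AP-1 factors, 1 of 14 of MAPK feedback, 2 of 15 of YAP, TAZ and TEAD, and 2 of 20 oncogenes and suppressors of lung adenocarcinoma. None was found among 15 mesenchymal genes, 12 NRF2 targets, 15 blood and immune cell markers or 11 neuroendocrine markers. With so few genes, a count of 0 of 15 allows a share of up to 21.8% (exact interval), which includes the background. The interval for epithelial identity, 5.73% to 43.7%, lay above the background, and those of all other single lists included it. The lists were written with earlier results of these data known, and KRT8 and KRT18 count the same site, so these shares are a description.

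NKX2-1, the transcription factor that defines the lung and thyroid lineage and is a marker of lung adenocarcinoma, had 4 sites. They formed the cluster chr14:36973215-36978210, in introns of SFTA3, a gene that overlaps NKX2-1 on the same strand. The sites lay 12.1 to 16.9 kb downstream of the NKX2-1 start, but 4165 to 8962 bp from the nearest transcript start of any gene. By distance to a start, their nearest protein-coding gene was SFTA3. Their H3K4me3 −log10 q was 3.86, 3.90, 4.35 and 3.06 from the nearest to the farthest, and the H3K27ac value was 4.01, 5.10, 5.10 and 1.70. The peaks were 826, 495, 838 and 199 bp wide, and the middle pair lay under the same H3K27ac peak of 2198 bp. All but the second were CpG-rich, with a GC content of 61.7% to 71.7%. Within 25 kb of the NKX2-1 start there were 14 H3K4me3 and 14 H3K27ac peaks, and 7 of the H3K4me3 peaks met H3K27ac, 4 of them the sites.

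FOXA1, a forkhead factor that opens chromatin in lung and other endodermal epithelia, had 2 sites between genes, 11.4 and 12 kb downstream of its start. chr14:38053471-38053886 had values of 3.24 for H3K4me3 and 3.21 for H3K27ac, and chr14:38052781-38053278 had 8.64 and 8.0. Both were CpG-rich, with a GC content of 71.3% and 72.7%, and the nearest start, at 4.08 and 4.69 kb, was that of an unnamed gene. The peak 2969 bp upstream of FOXA1, just short of the 3 kb limit, was 1263 bp wide, with 7.92 and 5.43. Within 25 kb of the FOXA1 start, 8 of 10 H3K4me3 peaks met H3K27ac.

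**Figure D5:**
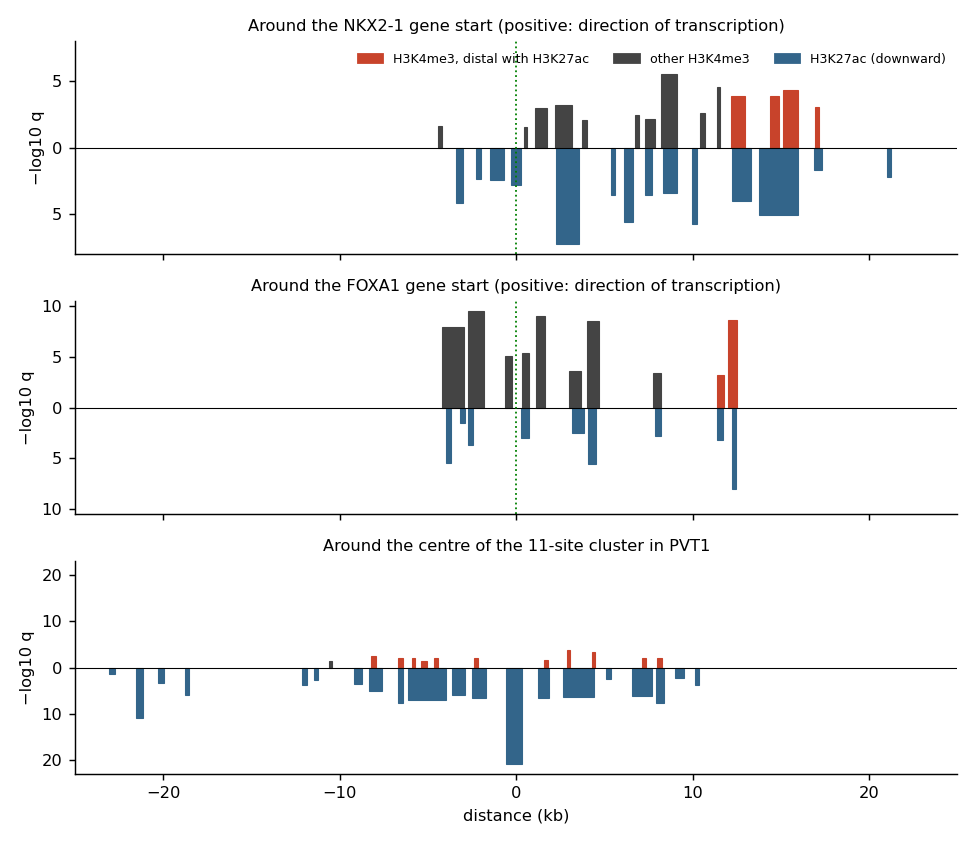
Peaks within 25 kb of the NKX2-1 start, the FOXA1 start and the centre of the cluster of 11 sites in PVT1 (x axis, distance in kb); bars upward are H3K4me3 and bars downward H3K27ac, with height the −log10 q (y axis, both directions positive), and red bars are the sites. Near NKX2-1 and FOXA1 the sites lay downstream of other H3K4me3 peaks closer to the gene start (dotted line), while 11 of 12 H3K4me3 peaks in the PVT1 panel were sites.

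Among genes of epithelial identity, GRHL1, a grainyhead-like factor, had a site 10.8 kb upstream of its start (H3K4me3 3.15 and H3K27ac 3.05). OVOL1, a zinc finger factor that favours the epithelial state, had a site 30.7 kb downstream (4.46 and 3.50), and its ratio of observed to expected CG, 1.07, was the highest of all 836. KRT8 and KRT18, the partner keratins of simple epithelia, shared chr12:53339042-53339270, in an intron of KRT8 (3.28 and 3.71). It lay 4.47 kb from the start of KRT8 and 3.39 kb from that of KRT18.

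In the signalling lists, the site of FOSL1, which encodes the AP-1 subunit FRA1, lay 13.7 kb upstream (2.80 for H3K4me3 and 2.82 for H3K27ac). That of SPRY4, a Sprouty inhibitor of receptor tyrosine kinase signalling, lay 30.2 kb upstream (1.55 and 3.32). It was in the noncoding gene SPRY4-AS1, 3139 bp from a start of that gene. The sites of FOSL1 and SPRY4 were both CpG-rich. TEAD1 and TEAD3, the DNA-binding partners of YAP and TAZ, had sites inside the genes, 18.6 and 5.44 kb downstream, with low values of 1.88 and 2.97 for H3K4me3 and 1.55 and 2.16 for H3K27ac. The sites of EGFR, a receptor tyrosine kinase often mutated in this cancer, and of STK11, a kinase and tumour suppressor, were also inside the genes, 47.6 and 36.9 kb downstream. Their H3K4me3 values were 2.20 and 3.38, and their H3K27ac values 3.0 and 3.79. Of the 15 distinct sites near listed genes, 8 were CpG-rich, against 79 of all 836 (9.45%). Of the 8, 3 were near NKX2-1 and 2 near FOXA1, so neighbouring sites were counted as separate cases. The count was made after the values were seen, on lists written with earlier results known. Distance alone does not tie a site to a gene, and expression was not analysed here.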

How the data were processed

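ChIP-seq of H3K27ac and H3K4me3 in H2087 cells was analysed from the peak list deposited for each mark (1 library per mark, replicate error unknown). According to the study's methods and the submitters' processing notes, the authors aligned reads to hg19 with Bowtie 1.1.1 and called peaks with MACS2 2.1.0. An input was kept for normalization, and Picard 1.118 is among the tools listed. The threshold, what was done with duplicate reads and whether the input served as the control in peak calling are not given in the sources used here. The last column of the deposited lists, which has no header, was read as −log10 q from its values, which start at 1.31 (H3K4me3) and 1.30 (H3K27ac). The lists hold no read counts, so the depth is unknown. It can change which regions were called, and the lack of a peak may mean too few reads.

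Entries repeated for several summits were merged into distinct intervals with their highest value. Starts, exons and genes came from GENCODE 44 lifted to GRCh37, and positions are 1-based. Shares have exact Clopper-Pearson, differences Newcombe and medians order-statistic 95% intervals. Computation used Python 3.11.15, pandas 2.3.3 and scipy 1.17.1, and was tested on simulated data. No test was run. The rule for named sites was the 5 highest values in each list, the 5 widest, the 5 farthest from starts, the 3 largest clusters, those nearest the limits, and listed genes with a site. Some sites that this rule names, those ranked first by value included, are not reported here. The sites and lists were chosen with earlier results of these data known. Alternatives covered overlap, distance, gene types, peak values, multi-copy sequence, chromosomes, window size and joining distance.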

Additional observations from a re-analysis of the deposited data

How the results depend on the processing

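Of 64 recomputed values over 11 results, 32 stayed within the interval or tolerance of the value reported and 32 moved. For the number of sites the tolerance was wide, a factor of 1.5, which spans 557 to 1254 sites. Requiring 50% of both peaks to be shared left 471 sites, 12.5% of distal H3K4me3 peaks, with a median width of 283 bp, 12.3% CpG-rich and 17.0% in clusters. With a limit of 1 kb from starts there were 1296 sites with a median width of 282.5 bp and 75.1% in genes. With 10 kb there were 408, or 19.0% of distal H3K4me3 peaks, with a median width of 261.5 bp, 60.0% in genes and a median GC content of 54.0%. Counting distance to protein-coding starts only gave 1163 sites, more than the 836 reported but inside that tolerance. With these starts overlap was 23.6%, median width 287 bp, 72.8% were in genes, 16.0% were CpG-rich and 31.8% were in clusters. The upper part of each list by −log10 q gave 249 sites, an overlap of 19.9%, a median width of 304 bp, 64.7% in genes, 12.9% CpG-rich and 23.3% in clusters. Without multi-copy peaks the median GC content was 56.3%. Without chromosomes 8 and 12, 23% were in clusters and 42.7% in stitched regions of at least 5 peaks, an alternative added after the data were seen. Windows of 600 bases had a median GC content of 52.7% and a TGANTCA match in 15.3%. Joining sites within 20 kb put 32.8% in clusters. Protein-coding genes with a site made up 1.64% within 20 kb and 7.39% within 100 kb.

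The cause of these changes was not tested beyond what each alternative changes by construction. No paired analysis was possible because the lists come from single libraries without replicate numbers. Depth is unknown, and low −log10 q values limit how firmly single sites can be called.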

Other observations

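Beside PVT1 and PARD3, other genes hosted groups of sites. Of these, ARRB1 and BCL9L held 5, and HPCAL1, LRP5, RAI1, SFTA3, ST14 and ZDHHC7 held 4. The examples below were chosen after the values were seen and stand for no common theme. ARRB1, which encodes beta-arrestin 1, had an H3K4me3 −log10 q of 1.64 to 6.31 and an H3K27ac value of 2.16 to 4.01. The H3K4me3 values were 1.64 to 4.20 in LRP5, a co-receptor of Wnt signalling, and 2.02 to 4.39 in ST14, the epithelial membrane protease matriptase, and the H3K27ac values 1.66 to 6.81 and 1.86 to 5.21.

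BCL2L1, an inhibitor of apoptosis on chromosome 20, held 3 sites with H3K4me3 values of 2.51 to 6.30 and H3K27ac values of 2.95 to 5.87. SMAD3, a mediator of TGF-beta signalling, held 3 with H3K4me3 values of 2.73 to 3.76. MITF, a transcription factor best known from melanocytes, held 3 with H3K4me3 values of 2.77 to 3.23. No site in these 6 genes touched an exon or was CpG-rich. By distance to the gene start, BCL9L, LPCAT1 and UPK2, a uroplakin gene, each had 6 sites within 50 kb. BCL9L and UPK2 are neighbours on chromosome 11 and share sites.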
